A study of Caenorhabditis elegans with 6 samples.

Results

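The transcripts described here encode 9 mitochondrial chaperones and protein import components of Caenorhabditis elegans: hsp-6, hsp-60, dnj-10 and hsp-75, which act in the matrix, tomm-20, tomm-22 and tomm-40 of the outer membrane translocase, and timm-23 and timm-17B.1 of the inner membrane translocase. They were taken from a list of names, and every probe set annotated to 1 of them alone was kept, which gave 16 probe sets among 22548 that were not array controls. The 9 genes stand among 17118 named genes on the array. The genotypes compared were zip-3(gk3164), which is 1 allele of zip-3, and wild-type, with 3 Affymetrix arrays each. All worms, of both genotypes, ate control(RNAi) bacteria in liquid culture after synchronization by bleaching and were taken as whole L4 larvae, the last larval stage.

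Most mitochondrial proteins are made in the cytosol and imported. Receptors of the outer membrane (TOM) complex pick up precursors and pass them through the TOM channel, the inner membrane (TIM) complex takes those bound for the matrix, and matrix Hsp70 pulls them in and helps them to fold together with J-proteins and the chaperonin. When import or folding in the matrix fails, worms raise the transcripts of hsp-6 and hsp-60 through the bZIP factor ATFS-1, a program called the mitochondrial unfolded protein response, and both genes are used as its reporters. The bZIP gene zip-3 has been linked to repression of this response, so the comparison asks whether the chaperone and import transcripts differ between zip-3(gk3164) and wild-type larvae on control(RNAi).

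Values are MAS5 signals on a linear scale, which Affymetrix software computes from the probes of a probe set. Probe sets entered the test where their mean log2 signal reached the 40th percentile, equal to a signal of 68.7, and all 16 probe sets of the 9 genes did. Genotypes were compared with limma on log2 signals over 13529 probe sets with Benjamini-Hochberg adjustment and a threshold of 0.05, and a gene is represented by its brightest probe set. Differences are mutant minus wild-type on the log2 scale with the moderated standard error. Beyond the words "biological rep", the labels do not say how the cultures of a genotype were separated, so the p-values measure the spread between these arrays, part of which may be technical.

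The brighter zip-3 probe set read 384.6, 458.7 and 233.8 in the mutant arrays, against 1203.9, 1112.7 and 939.6 in the wild-type arrays, a log2 difference of -1.64 ± 0.28 (SE; limma adjusted p = 0.0717). Without mutant array 3, which read lowest, zip-3 was at -1.36 and passed (limma adjusted p = 0.00645). The dimmer one read 64.4, 74.9 and 50.8 in the mutant, against 116.8, 84.5 and 71.9 in wild-type. The brighter probe set separated the genotypes without overlap, and the dimmer one did not. Whether either lies inside the deleted part of zip-3 is not stated in the labels. Array medians lay between 126.0 and 139.1 in the mutant and between 123.9 and 132.2 in wild-type. Mutant array 3 stood apart from the other mutant arrays: its correlation over the tested probe sets, which are not independent, was 0.925 with array 1 and 0.890 with array 2 of the mutant, while that with wild-type arrays reached 0.943 to 0.958. Marker transcripts of several tissues and of moulting were also compared, while tissue make-up and exact stage were not measured. All 7 sperm markers were lower, with a summed signal of 2916 to 11623 in the mutant and 14862 to 20124 in wild-type, and all 8 germline and oocyte markers were lower, at 7380 to 17295 in the mutant and 15177 to 19757 in wild-type. All 7 moulting markers were higher, at 15606 to 20450 in the mutant and 2794 to 6764 in wild-type. limma called 0 of the sperm, 0 of the germline and 2 of the moulting markers, and 6, 3 and 6 had an unadjusted p under 0.05. The shares over all genes tested were 0.154% called and 19.9% with such a p. Without mutant array 3 it called 6 sperm and 5 germline markers lower and 4 moulting markers higher, in a fit that called 10.9% of all genes as lower and 6.02% as higher. All muscle, intestine, neuron and hypodermis markers were above the filter except the neuron gene unc-31, which read as low as 4.75 and was not tested. Of 5 hypodermis markers limma called 0, and all 5 were separated without overlap at an unadjusted p under 0.05, 3 higher and 2 lower. Among all genes tested, 13.8% were separated as higher and 9.34% as lower. The summed signal of the hypodermis markers was 56759 to 62411 in the mutant and 72954 to 79071 in wild-type. The summed signal of 6 intestine markers was 60280 to 68625 in the mutant and 71974 to 82696 in wild-type, and that of 6 neuron markers was 4799 to 5039 in the mutant and 4010 to 4534 in wild-type, both without overlap. Bright markers weigh most in such sums. Taken singly, 0 of the 6 intestine and 0 of the 5 tested neuron markers were separated, and limma called 0 of either. The intestine markers split into 3 higher and 3 lower, with a median log2 difference of 0.05, and the 5 neuron markers were all higher, with a median of 0.16. Without mutant array 3 limma called 2 higher and 1 lower among the hypodermis markers, and likewise among the intestine markers. The sum of 6 muscle markers overlapped, at 57639 to 80567 in the mutant and 59487 to 79004 in wild-type. In whole larvae, fewer cells of a type and less RNA per cell cannot be told apart, and the part that these marker differences have in the values below was not tested.

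No chaperone or import gene passed the threshold when all 6 arrays counted equally. Of the 9, 0 were called, against 0.154% of the 10369 genes tested (16 genes), and the adjusted p-values lay between 0.154 and 0.977. At an unadjusted limma p under 0.05 there was 1 of the 9, tomm-20, where 19.9% of all genes had such a p. The differences were small: 6 lay above 0 and 3 below, from -0.06 for tomm-40 to 0.55 for tomm-20, with a median of 0.27, beside a median of 0.03 over all genes tested and 52.8% of them positive. In 4 genes, hsp-6, dnj-10, tomm-20 and timm-17B.1, every mutant array lay above every wild-type array. Among all genes tested 13.8% were separated in that direction and 9.34% in the other, in which 0 of the 9 were separated. The median of the 9 genes in the individual arrays, relative to the wild-type mean, was 0.17, 0.25 and 0.13 in the mutant, against -0.05, -0.01 and 0.07 in wild-type. With so few arrays, the limma 95% intervals of the 9 genes were wide enough to hold no difference in every gene but tomm-20. They also left room for sizeable changes. Their upper ends lay between 1.26-fold (tomm-40) and 1.84-fold (tomm-20), with 1.70-fold for hsp-6. Their lower ends lay between 0.711-fold (hsp-75) and 1.17-fold (tomm-20).

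**Figure D1:**
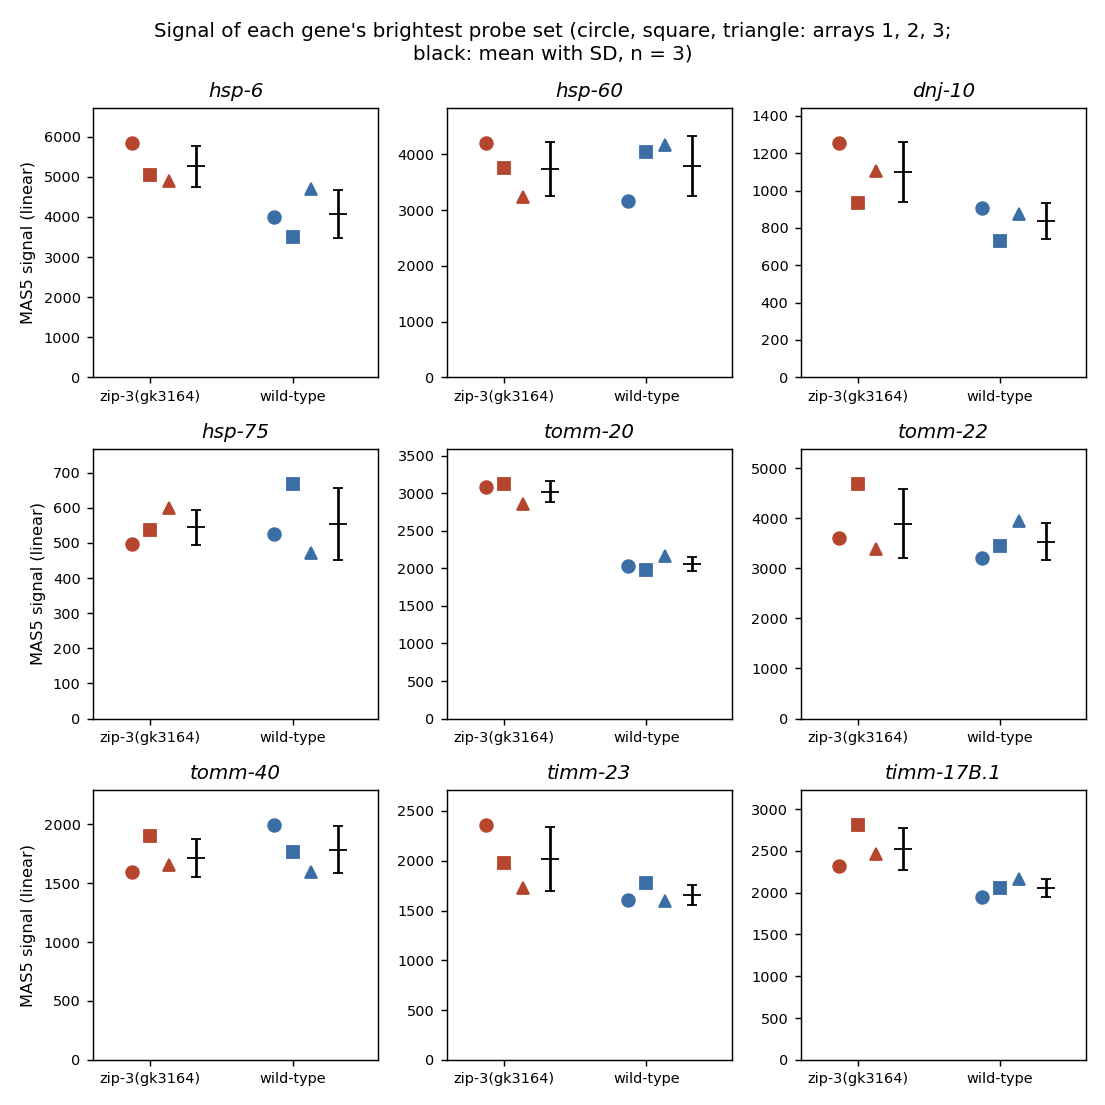
MAS5 signal (linear, each axis from 0) of the brightest probe set of each of the 9 genes in the 3 zip-3(gk3164) and 3 wild-type arrays, with the mean and SD (n = 3) in black. The genotypes do not overlap for hsp-6, dnj-10, tomm-20 and timm-17B.1, and overlap for the other genes.

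Among the matrix chaperones, hsp-6 and dnj-10 read higher in the mutant by about the same amount, hsp-60 and hsp-75 gave differences near 0, and none of the 4 passed. hsp-6 encodes the mitochondrial Hsp70, the motor of import and a main folding chaperone of the matrix. Its brighter probe set (174618_at) read 5852, 5049 and 4896 in the mutant arrays, against 3998, 3512 and 4702 in the wild-type arrays. The lowest mutant array, array 3, was only slightly above the highest wild-type array, array 3. The difference was 0.38 ± 0.16, or 1.30-fold (95% interval of the log2 difference -0.0075 to 0.76; limma adjusted p = 0.265). Two-sided and exact, a permutation test of hsp-6 alone gave p = 0.10, the smallest that 3 arrays against 3 allow. The dimmer hsp-6 probe set read 907.0, 823.3 and 702.6 in the mutant, against 677.9, 705.1 and 574.7 in wild-type. There mutant array 3 lay just below wild-type array 2, so the genotypes overlapped, and the difference was 0.31 ± 0.19 (limma adjusted p = 0.403). Both hsp-6 probe sets were thus highest in mutant array 1.

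dnj-10 encodes a mitochondrial J-protein, a co-chaperone that stimulates the ATPase of Hsp70. The brighter dnj-10 probe set (175178_at) read 1256, 933.2 and 1107 in the mutant, against 907.4, 730.0 and 873.8 in wild-type. Mutant array 2 was the lowest of the mutant arrays and exceeded the highest wild-type array by little. The difference was 0.39 ± 0.19, or 1.31-fold (95% interval -0.06 to 0.83; limma adjusted p = 0.313). The dimmer dnj-10 probe set did not show it: it read 329.3, 536.6 and 379.3 in the mutant, against 400.7, 437.0 and 388.4 in wild-type, a difference of -0.01 ± 0.23. Its suffix marks sequence shared with other transcripts, and the brighter one has no such mark.

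hsp-60 encodes the mitochondrial chaperonin, the barrel in which imported proteins fold. The brighter hsp-60 probe set (175619_s_at) read 4207, 3760 and 3231 in the mutant, against 3166, 4036 and 4158 in wild-type. The genotypes covered almost the same range, with mutant array 3 and wild-type array 1 lowest. The difference was -0.02 ± 0.18 (limma adjusted p = 0.967), and its 95% interval of -0.43 to 0.40 leaves room for a change to between 0.741 and 1.32 times the wild-type signal. The dimmer hsp-60 probe set read 590.0, 732.0 and 406.9 in the mutant, against 528.7, 631.4 and 513.8 in wild-type, a difference of 0.01 ± 0.25. Both are marked by their suffix as sharing sequence with other transcripts.

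hsp-75 encodes the worm counterpart of TRAP1, a mitochondrial member of the Hsp90 family. Its single probe set (188515_s_at), also marked for shared sequence, read 498.2, 535.6 and 598.0 in the mutant, against 524.8, 667.4 and 470.1 in wild-type. The wild-type arrays spread more widely than the mutant arrays and enclosed all 3 of them. The hsp-75 difference was -0.02 ± 0.20 (95% interval -0.49 to 0.46; limma adjusted p = 0.977).

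Since hsp-6 and hsp-60 are the paired reporters of the mitochondrial unfolded protein response, their difference within each array was compared between genotypes. The log2 signal of hsp-6 minus that of hsp-60 was 0.48, 0.43 and 0.60 in the mutant arrays, against 0.34, -0.20 and 0.18 in the wild-type arrays. All mutant values exceeded all wild-type values, and the SD was 0.09 in the mutant and 0.28 in wild-type. The genotypes differed by 0.40, a 1.32-fold higher hsp-6 relative to hsp-60 in the mutant, with an exact two-sided permutation p = 0.10, again the smallest possible. These values rest on the brighter probe set of each gene. With the mean over the probe sets of a gene, the difference was 0.35 and the exact permutation p = 0.20, no longer the smallest possible. Only the change in this quantity between genotypes can be read, not its level, because the 2 probe sets bind with different strength.

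**Figure D2:**
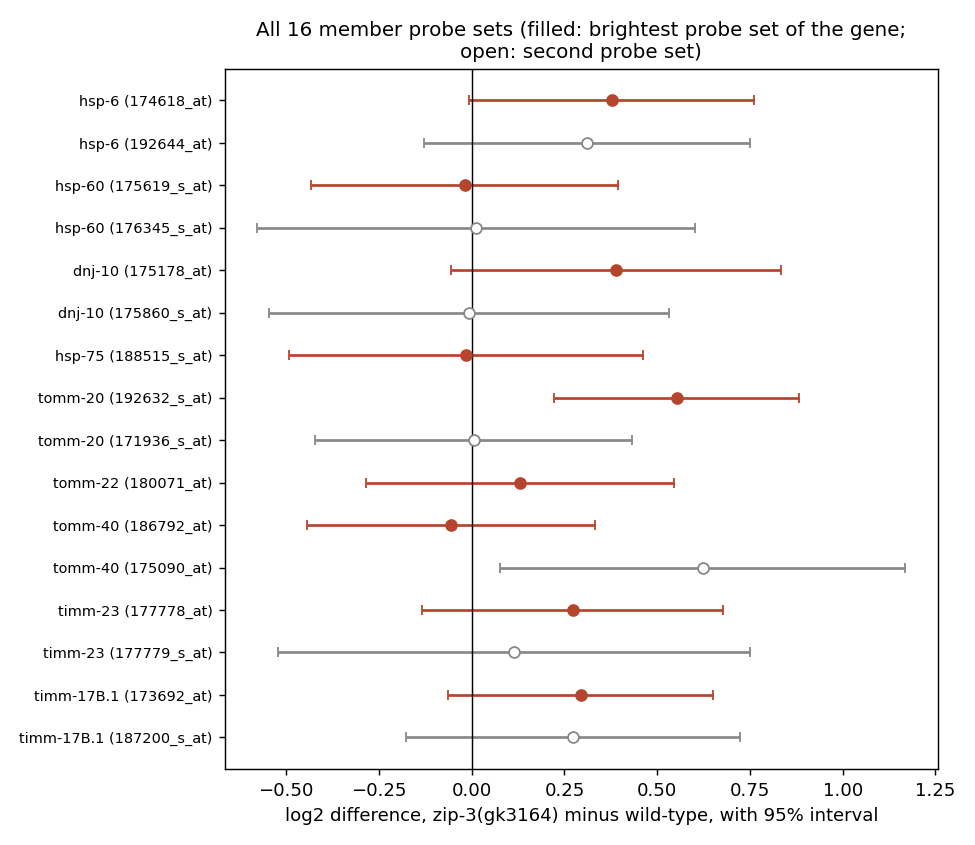
Log2 difference, zip-3(gk3164) minus wild-type, of all 16 probe sets of the 9 genes (filled: the brightest of the gene; open: the second), with the limma 95% interval from 3 arrays against 3. The intervals of the brighter tomm-20 and the dimmer tomm-40 probe set lie above 0, and the other 14 include 0.

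In the outer membrane, tomm-20 had the most distinct signal of the 9 genes. tomm-20 encodes a receptor that recognises the targeting presequences of precursors. Its brighter probe set (192632_s_at) read 3087, 3123 and 2857 in the mutant, against 2037, 1979 and 2164 in wild-type. The gap between the genotypes was wider than the whole range within either of them. The mean signal was 3022 ± 144 in the mutant and 2060 ± 94 in wild-type (SD, n = 3 each), and the log2 difference was 0.55 ± 0.14, or 1.47-fold (95% interval 0.22 to 0.88; unadjusted p = 0.00509, limma adjusted p = 0.154; exact permutation p = 0.10). This is no large shift for these data, since 71.7% of the tested probe sets had a difference of that size or smaller in either direction. The replicates were unusually close: a residual SD as low as the 0.07 of tomm-20 was met in 0.931% of tested probe sets. The dimmer tomm-20 probe set did not share the difference. It read 1501, 1508 and 1329 in the mutant, against 1300, 1750 and 1308 in wild-type, with wild-type array 2 the highest of the 6, and the difference was 0.01 ± 0.18 (95% interval -0.42 to 0.43; limma adjusted p = 0.990). Both tomm-20 probe sets are marked for shared sequence. Without mutant array 3 the brighter one was at 0.59 and passed (limma adjusted p = 0.0368), in a fit that called 6.02% of all genes as higher. No other of the 9 genes passed in that fit. With any other single array left out, tomm-20 did not pass (limma adjusted p = 0.2001 to 0.4345), and 0 probe sets were called.

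tomm-22 encodes the central receptor that also organises the TOM complex. Its single probe set (180071_at) read 3608, 4684 and 3392 in the mutant, against 3212, 3443 and 3945 in wild-type. Mutant array 2 was the highest, and the other mutant arrays lay within the wild-type range. The difference was 0.13 ± 0.18 (95% interval -0.28 to 0.55; limma adjusted p = 0.733), and without mutant array 2 it was -0.0093.

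tomm-40 encodes the beta-barrel channel through which precursors cross the outer membrane, and its 2 probe sets disagreed. The brighter (186792_at) read 1592, 1902 and 1652 in the mutant, against 1992, 1763 and 1597 in wild-type, and the genotypes covered nearly the same range. The difference was -0.06 ± 0.17 (limma adjusted p = 0.892). The dimmer (175090_at) read 951.1, 789.8 and 1316 in the mutant, against 723.2, 564.5 and 663.6 in wild-type. There the genotypes did not overlap, mutant array 3 was the highest, and the difference was 0.62 ± 0.23, or 1.54-fold (unadjusted p = 0.0304, limma adjusted p = 0.215). Neither tomm-40 probe set is marked for shared sequence. With the mean of both taken for the gene, the tomm-40 difference was 0.28 (limma adjusted p = 0.385).

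Both inner membrane genes were higher in the mutant by a similar amount, and neither passed. timm-23 encodes the channel subunit of the TIM23 complex. The brighter timm-23 probe set (177778_at) read 2356, 1975 and 1723 in the mutant, against 1606, 1776 and 1595 in wild-type. Mutant arrays 1 and 2 lay above all wild-type arrays, and mutant array 3 lay below wild-type array 2. The difference was 0.27 ± 0.17 (95% interval -0.13 to 0.68; limma adjusted p = 0.430), and without mutant array 1 it was 0.15. The dimmer timm-23 probe set, marked for shared sequence, varied more within each genotype, at 2393, 1320 and 1937 in the mutant, against 1295, 1828 and 2040 in wild-type. Its difference was 0.11 ± 0.27.

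timm-17B.1 encodes a TIM17 protein, the partner of TIM23 in the channel. The brighter timm-17B.1 probe set (173692_at) read 2316, 2806 and 2460 in the mutant, against 1945, 2058 and 2168 in wild-type. The genotypes did not overlap, with mutant array 2 the highest. The difference was 0.29 ± 0.15, or 1.23-fold (95% interval -0.06 to 0.65; limma adjusted p = 0.337). The dimmer timm-17B.1 probe set, marked for shared sequence, gave 0.27 ± 0.19, with 1674, 1788 and 1231 in the mutant, against 1362, 1277 and 1199 in wild-type. There mutant array 3 lay among the wild-type arrays.

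Over all 16 probe sets, 12 differences lay above 0 and 4 below, the median was 0.20, and 5 were separated without overlap, all with the mutant higher, where 14.1% of the tested probe sets were. Of the 7 genes with 2 probe sets, hsp-6 and timm-17B.1 had both at similar positive values and hsp-60 had both near 0, while dnj-10, tomm-20 and tomm-40 had 1 near 0 and the other at 0.39 or more, and timm-23 had 0.27 and 0.11. All 16 were bright, since the lowest signal on any array was 329.3, well above the filter. The mutant array with the highest value differed between the genes: it was array 1 for hsp-6, hsp-60, dnj-10 and timm-23, and array 2 for tomm-20, tomm-22, tomm-40 and timm-17B.1, with hsp-75 highest in array 3.

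The fit with limma's array weights, which lets arrays that lie close to their group count more, called 4 of the 9 genes: hsp-6 at 0.55 (limma adjusted p = 0.0104), dnj-10 at 0.57 (0.0173), tomm-20 at 0.60 (0.00390) and timm-23 at 0.46 (0.0226). In that fit mutant array 1 had a weight of 5.89, mutant arrays 2 and 3 had 0.448 and 0.267, and the wild-type arrays 1.36, 1.45 and 0.714. All 4 genes but tomm-20 had their highest signal in mutant array 1, and the same fit called 17.6% of all genes as higher.

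**Figure D3:**
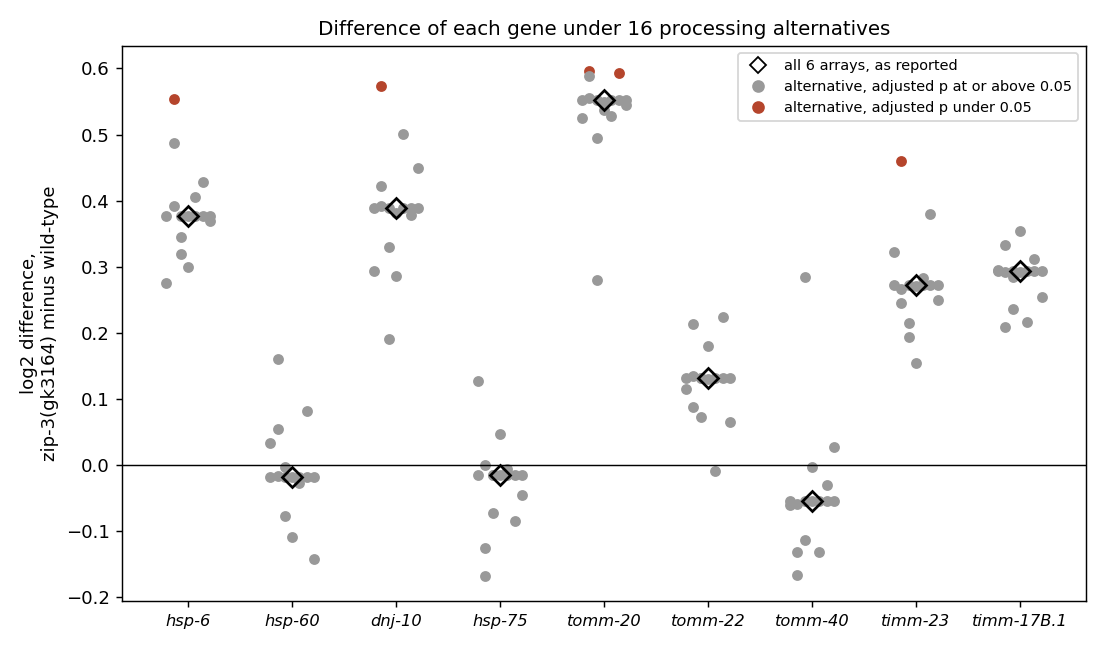
Log2 difference, zip-3(gk3164) minus wild-type, of each of the 9 genes with all 6 arrays (diamonds) and under 16 alternative ways of processing or leaving out an array (circles, in red where the limma adjusted p was under 0.05). Values of hsp-6, dnj-10, tomm-20, timm-23 and timm-17B.1 stay above 0 under all 16, and those of hsp-60, hsp-75, tomm-22 and tomm-40 lie on both sides of 0.

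Other tested genes of the import route were not called either, which holds for nearly all genes tested. Of 21 listed, 17 were found on the array by name and tested: 11 differences were above 0 and 6 below, the median was 0.10, and limma called 0, also at an unadjusted p under 0.05, beside 0.154% and 19.9% of all genes. In 3 of the 17 the mutant arrays all lay above the wild-type arrays, beside the 13.8% of all genes. The strongest were timm-17B.2, a second TIM17 gene, at 0.70 ± 0.33 (limma adjusted p = 0.293), and tin-10, which encodes a small chaperone of the intermembrane space, at 0.31 ± 0.15 (0.299). timm-17B.2 read 465.7, 299.7 and 611.3 in the mutant, against 327.4, 197.9 and 309.4 in wild-type, with mutant array 2 inside the wild-type range. tin-10 read 3902, 4374 and 3512 in the mutant, against 3141, 3117 and 3224 in wild-type, and did not overlap. gop-3, the counterpart of the outer membrane assembly factor SAM50, was at 0.29 ± 0.16 (limma adjusted p = 0.381) and the small intermembrane chaperone gene tin-9.1 at 0.31 ± 0.19 (0.417), both without overlap. tomm-70, a further outer membrane receptor, was at 0.32 ± 0.21, and the processing peptidase genes mppa-1 and mppb-1, whose products remove presequences, were at -0.07 ± 0.22 and 0.14 ± 0.15.

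Among 12 co-chaperones, proteases and regulators of the matrix stress response, zip-3 included, limma called 0 in either direction, 1 of 12 had an unadjusted p under 0.05 (zip-3 itself), beside 0.154% and 19.9% of all genes, and the median was 0.09. Of the 12, 2 were separated without overlap as higher and 1, zip-3, as lower, beside 13.8% and 9.34% of all genes. atfs-1, the gene of the factor that activates the response, read 468.6, 372.6 and 363.8 in the mutant, against 288.5, 375.2 and 377.1 in wild-type. The genotypes overlapped, with mutant array 1 the highest and wild-type array 1 the lowest, and the difference was 0.21 ± 0.21 (limma adjusted p = 0.629). ymel-1, an inner membrane protease gene, was at 0.42 ± 0.18 without overlap (limma adjusted p = 0.268). dve-1, which encodes a homeodomain protein of the response, read 943.4, 705.3 and 425.3 in the mutant, against 401.0, 532.9 and 448.8 in wild-type. Its mutant array 3 lay within the wild-type range. The dve-1 difference of 0.52 ± 0.31 did not pass with 6 arrays (limma adjusted p = 0.393). Without mutant array 3 it was 0.83 (limma adjusted p = 0.0460), in a fit that called 6.02% of all genes as higher. No probe set was called with any other single array left out. ubl-5, whose product works with DVE-1, was at -0.23 ± 0.18. The partner chaperonin gene Y22D7AL.10 was at 0.05 ± 0.23 (limma adjusted p = 0.930).

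Relatives of these chaperones outside mitochondria gave a median of 0.12 over 19 tested of 20 listed, with 14 positive and 5 negative. limma called 0 of them, and 2 of 19, hsp-4 and cct-4, had an unadjusted p under 0.05, beside 0.154% and 19.9% of all genes. Of the 19, 3 were separated without overlap as higher and 1 as lower, beside 13.8% and 9.34% of all genes. hsp-4, which encodes the endoplasmic reticulum Hsp70 known as BiP, was lower in every mutant array, at 2536, 2729 and 2609, against 4058, 3153 and 3628 in wild-type. The hsp-4 difference was -0.45 ± 0.15 (limma adjusted p = 0.193), opposite in sign to hsp-6, and the difference between the 2 genes was not tested. The cytosolic chaperonin subunit cct-4 was at 0.41 ± 0.14 (limma adjusted p = 0.195) and cct-6 at 0.26 ± 0.14 (0.367), both without overlap. The J-protein gene dnj-12 was at 0.29 ± 0.18 with overlap (limma adjusted p = 0.403). hsp-1, the constitutive cytosolic Hsp70, was at 0.26 ± 0.17.

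The nuclear-encoded respiratory chain and ATP synthase, whose subunits arrive through the same import route, had a median of 0.06 over 31 tested genes, with 21 positive and 10 negative. limma called 0 of them, and 3 of 31, sdha-1, ucr-2.3 and asb-1, had an unadjusted p under 0.05, beside 0.154% and 19.9% of all genes. Of the 31, 2 were separated without overlap as higher and 1 as lower, beside 13.8% and 9.34% of all genes. sdha-1, the flavoprotein subunit of complex II, read 1859, 2230 and 1937 in the mutant, against 1303, 1208 and 1592 in wild-type. It did not overlap, at 0.56 ± 0.18 (limma adjusted p = 0.182). The complex III gene ucr-2.3 was at -0.79 ± 0.29 with overlap (limma adjusted p = 0.208) and the ATP synthase gene asb-1 at -0.58 ± 0.22 without overlap (0.218). Both passed without mutant array 3, at -1.05 (limma adjusted p = 0.0304) and -0.79 (0.0267). Another gene of the list, ucr-2.1, singled out because it passed, was there at 0.50 in the other direction (limma adjusted p = 0.0459). That fit called 10.9% of all genes as lower and 6.02% as higher, while no probe set was called with any other single array left out. The complex I gene lpd-5 was at 0.24 ± 0.14 without overlap (limma adjusted p = 0.389). No test of the difference between these lists was made.

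**Figure D4:**
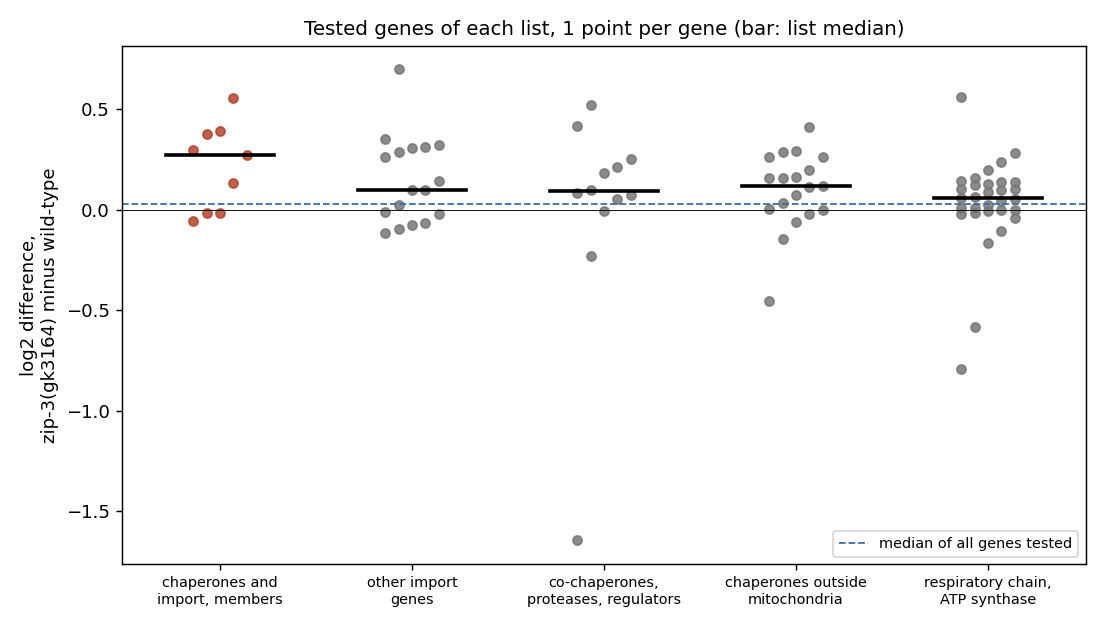
Log2 difference, zip-3(gk3164) minus wild-type, of the tested genes in 5 lists, 1 point per gene, with the list median as a bar and the median of all genes tested (0.03) as a dashed line. The medians are 0.27 for the 9 chaperone and import genes, 0.10 for other import genes, 0.09 for co-chaperones, proteases and regulators, 0.12 for chaperones outside mitochondria and 0.06 for the respiratory chain; the lowest point is zip-3.

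Profiles over the 6 arrays were compared with that of hsp-6 by the root mean square difference of log2 values, each gene set to its own wild-type mean. Among all other genes tested, the 4 closest were clp-4, which encodes a calpain, at 0.06, eea-1, an early endosome gene, at 0.07, C35B8.3, known here by its sequence name, at 0.07, and daf-15, which encodes the Raptor subunit of a TOR complex, at 0.08. None of the 4 passed (limma adjusted p = 0.238 to 0.524). They were chosen for a profile like that of hsp-6, which did not pass either, so this is no separate result. Within the 9 genes dnj-10 was closest to hsp-6 at 0.12, followed by tomm-20 at 0.16, timm-17B.1 at 0.19, timm-23 at 0.19, tomm-22 at 0.26 and hsp-60 at 0.33, with tomm-40 at 0.38 and hsp-75 at 0.42 farthest. dnj-10 came at position 79 among all genes and hsp-60 at position 2880.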

How the data were processed

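Per the submitters' processing notes, the authors used MAS5 and Affymetrix Expression Console, which give a linear signal intensity for each probe set; neither version is given there, and scanner files were not analysed here. Once 2% of values at either end were trimmed, each deposited array averaged 500.2, so all had been scaled alike; this leaves differences in distribution shape, and mismatch subtraction makes dim probe sets noisy. The deposited signals were taken to log2 without an offset. Of 22625 probe sets, 77 were controls. The platform annotation named 1 gene for 20766 and several for 887; 20701 gene identifiers matched the WBcel235 gene table. Suffixes that mark shared sequence are given for the 9 genes only. Probe sets of other named genes, such as atfs-1, ubl-5 and cct-4, carry them too. limma 3.58.1 in R 4.3.3 fitted genotype with an intensity trend. A simulation with known changes was run as a check. The 9 genes, the lists, and the rule for named genes were chosen with earlier results of these data known. The rule named the 9 genes, zip-3, atfs-1, up to 4 genes per list by moderated statistic and the 4 profiles closest to hsp-6; tomm-70, mppa-1, mppb-1, Y22D7AL.10 and hsp-1 were added for their roles, and ucr-2.1 for its call without mutant array 3, after their values were seen. The number of arrays limits the precision. Replicate numbers were checked for pairing: same-numbered arrays' deviations correlated at 0.02, 0.05 and -0.16, so they were not treated as pairs.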

Additional observations from a re-analysis of the deposited data

How the results depend on the processing

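With all 16 alternatives the 9 genes stayed above the filter, and in 14 of them 0 were called. Array weights called 4 (hsp-6 at 0.55, dnj-10 at 0.57, tomm-20 at 0.60 and timm-23 at 0.46), put hsp-60 at 0.16 and the median of the 9 at 0.21, and called 4738 probe sets, against 18 as reported. Leaving out mutant array 3 called 1 of the 9 genes and 2167 probe sets, and leaving out any other single array called 0 of either. The median of the 9 was 0.18 to 0.31 with single arrays left out. Over the same settings hsp-6 minus hsp-60 ranged from 0.24 to 0.51, tomm-20 from 0.52 to 0.59, timm-23 from 0.15 to 0.38, hsp-60 from -0.14 to 0.081, hsp-75 from -0.13 to 0.13, tomm-22 from -0.0093 to 0.22 and tomm-40 from -0.13 to 0.027. Quantile normalization put hsp-75 at 0.0001. Averaging the probe sets of a gene put tomm-40 at 0.28, tomm-20 at 0.28 (0.55 as reported), dnj-10 at 0.19 (0.39 as reported) and the median at 0.19. It put hsp-6 minus hsp-60 at 0.35 (exact permutation p = 0.20). An offset of 16 called 42 probe sets. With a replicate block limma called 0 probe sets, with 2334 at an unadjusted p under 0.05, and 0 of the 9 genes, with 1 at that level, and hsp-6 stayed at 0.38 (limma adjusted p = 0.353); mutant array 1 did not deviate most like wild-type array 1. At the unadjusted level, 2623 probe sets had p under 0.05 as reported and 1476 to 6273 under the alternatives. The cause of these shifts was not tested. Detection calls were not used, so signal over background is not known.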
